A study of Homo sapiens with 6 samples.

Results

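The 10 genes described here belong to bone morphogenetic protein (BMP) signalling and were followed in MDA-MB-231 cells. This established human line stems from a triple-negative breast tumour. They were the secreted modulator BMPER, the protease BMP1, the ligand BMP4, the receptors BMPR1A, BMPR2 and ACVR1, the signal transducers SMAD1 and SMAD5, and the target genes ID1 and ID3. The 10 genes were chosen by symbol with the sgMLL3 against sgNT result of these libraries already known. All 10 were found among the 15706 genes of the deposited table, and all 10 had a mean high enough to enter the test of 14618 genes. Because that contrast served to choose them, their differences between the groups are described here and carry no test.

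Bulk RNA was sequenced from 3 sgMLL3 libraries, labelled as MLL3 knockout, and 3 sgNT libraries, labelled as wild type and carrying a non-targeting guide. Both groups were the same cell line, grown in DMEM with serum and given no treatment, and the libraries of each group were labelled biological replicates 1 to 3. MLL3 is the product of KMT2C, a methyltransferase that places histone H3 lysine 4 methyl marks at enhancers. Whether each group was 1 clone or a pool is not labelled, so p-values measure the spread between these libraries. The title of the series concerns how MLL3 loss bears on metastasis and the epithelial-mesenchymal state, and names no BMP question.

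BMP ligands such as BMP4 are secreted dimers that bring together type I receptors (BMPR1A, ACVR1) and type II receptors (BMPR2). The type II receptor phosphorylates the type I receptor, which phosphorylates SMAD1 and SMAD5. These enter the nucleus with SMAD4 and switch on target genes, among which the ID genes are the best known. ID proteins are helix-loop-helix proteins without a DNA-binding region that hold E proteins such as TCF3 and TCF12 off the DNA. Outside the cell, ligands are kept from or brought to their receptors by binding proteins, BMPER among them.

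Levels below are normalized read counts, and a log2 fold change is the difference sgMLL3 minus sgNT of mean log2(normalized count + 1) with its standard error (SE) from limma. Between 41240265 and 49514464 reads per library fell in the listed genes. KMT2C itself had 1519, 1660 and 1339 counts in the sgMLL3 libraries, against 1367, 1379 and 1255 counts in the sgNT libraries, so its transcript gave no check of the labels. Fold changes over all genes followed the GC content of the transcripts (Spearman's rho -0.673 across genes, which are not independent replicates and share 6 libraries). The sgMLL3 libraries leaned to AT-rich transcripts and the sgNT libraries to GC-rich ones, so the genotype and this GC trend cannot be told apart. Each fold change is therefore also given after splines of GC content and transcript length were fitted per library and subtracted, called trend removal below. Along principal component 2 the control library sgNT replicate 1 scored 34.9, far from the other libraries (-15.1 to -2.03). Values without it are given for several of the results that rest on it. As for the cell line, all 5 mesenchymal markers listed were measured, at unlike levels. VIM, CD44 and AXL had at least 17394 counts in every library, and SPARC had 54.9 to 91.6. ZEB1 had 1989 to 2211 counts in sgMLL3 and 1169 to 1301 in sgNT. VIM had 20718 to 22344 in sgMLL3 and 24143 to 24497 in sgNT, and AXL 44071 to 49157 and 55733 to 58823. CD44 and SPARC overlapped between the groups. The epithelial and hormone receptor markers were mixed as well. CDH1, the epithelial cadherin, had at most 7.52 counts in any library, and ESR1 and PGR were not among the rows used here. EPCAM had 861 to 999 counts in sgMLL3 and 765 to 796 in sgNT, ERBB2 4581 to 5282 in sgMLL3 and 5612 to 6016 in sgNT, and GATA3 426 to 505 in sgMLL3 and 572 to 674 in sgNT.

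In the table as deposited, 4 of the 10 genes passed the limma threshold as higher in sgMLL3 (BMPR1A, BMPR2, SMAD1 and SMAD5) and 2 as lower (BMPER and BMP1), where 18.9% of all tested genes passed as higher, 14.4% as lower and 33.2% either way. Without sgMLL3 replicate 1, sgMLL3 replicate 2 or sgNT replicate 3, the count of 6 dropped to 3, 2 and 3. Without sgNT replicate 1 it was 7, with BMP4 passing as lower. Once the trend was removed, BMPER alone passed, as lower, where 4.08% of all genes passed as higher, 5.95% as lower and 10.0% either way. BMPER no longer passed there without sgMLL3 replicate 1 or without sgMLL3 replicate 2, and SMAD5 and ID1 passed as higher beside it without sgNT replicate 1. Group values lay fully apart in 6 of the 10 genes, against 46.3% of all genes tested, and in 5 after trend removal, against 30.9%. Since the contrast helped to choose the genes, nothing is read from these shares.

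**Figure D1:**
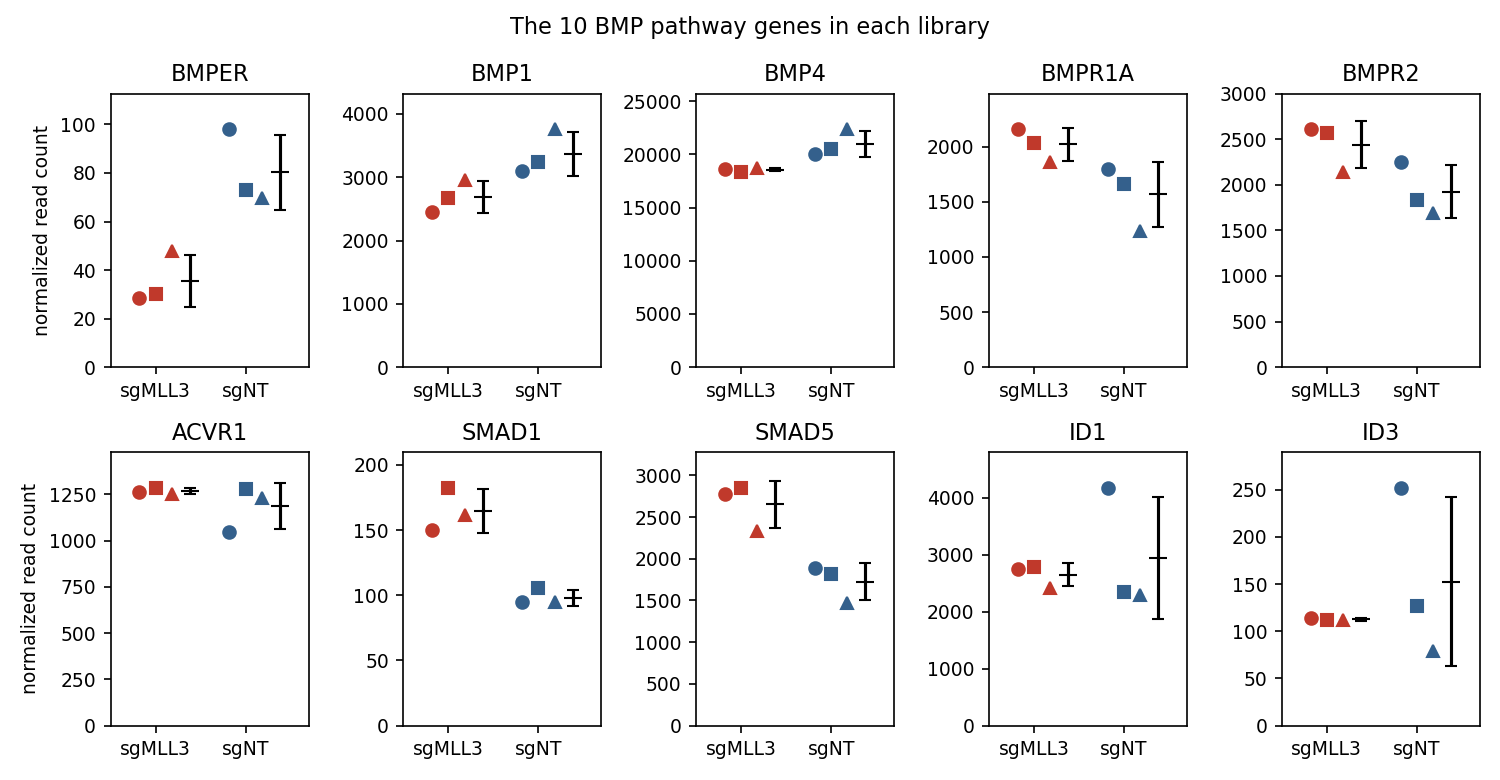
Normalized read count (linear axis from 0) of each of the 10 genes, with sgMLL3 libraries in red on the left and sgNT libraries in blue on the right of each panel. Circles, squares and triangles are replicates 1, 2 and 3, and the black bar is the mean with its SD (n = 3). BMPER lies lower in every sgMLL3 library, SMAD1 and SMAD5 lie higher, and sgNT replicate 1 is the highest library for ID1 and ID3.

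BMPER showed the largest difference of the set. BMPER is a secreted protein with von Willebrand factor type C domains that binds BMPs and can either block or aid their signal. The gene (ENSG00000164619.10) lies on chromosome 7 from 33904308 to 34156356 on the plus strand of GRCh38, per GENCODE 29. It had 28.5, 30.1 and 47.7 normalized counts in the sgMLL3 libraries, against 98.0, 73.0 and 69.5 in the sgNT libraries. The highest sgMLL3 library, replicate 3, stayed below the lowest sgNT library, and sgNT replicate 1 was the highest of all. The means were 35.5 ± 10.6 in sgMLL3 and 80.2 ± 15.5 in sgNT (SD, n = 3 each), a ratio of 0.442.

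The log2 fold change of BMPER was -1.18 (SE 0.29), and it was -1.24 (SE 0.28) with the trend removed. Its GC content was 46.7%. Without sgNT replicate 1 it stood at -1.03 as deposited and at -1.10 with the trend removed. These values rest on few reads: 27, 34 and 52 in the sgMLL3 libraries, against 91, 68 and 72 in the sgNT libraries. The exact 95% Poisson interval of the highest sgMLL3 library ran from 35.6 to 62.6 normalized counts, and that of the lowest sgNT library from 54.4 to 87.6, so these intervals, which cover counting error only, met. In the authors' deposited table BMPER had a log2 fold change of -1.17 with a standard error of 0.32. In bulk RNA, fewer cells that express a gene and less RNA per cell cannot be told apart. A list of 10 fibroblast markers had 4 members in the table, whose summed counts were 1012 to 1105 in sgMLL3 libraries and 1732 to 1908 in sgNT libraries. PDGFRA, DCN, LUM, FAP, POSTN and THY1 were not among the rows used here. Endothelial markers, 3 of 5 in the table without CDH5 and TEK, summed to 166 to 207 in sgMLL3 and 222 to 292 in sgNT. Both sums were lower in sgMLL3 without overlap, as were the sums of every other marker list. Leukocyte markers summed to 419 to 495 in sgMLL3 and 530 to 844 in sgNT. Epithelial and hormone receptor markers summed to 6008 to 6653 in sgMLL3 and 6986 to 7459 in sgNT, and mesenchymal markers to 86424 to 92833 and 101009 to 102027. COL1A2, PDGFRB, VWF and KDR did not overlap between the groups, while COL1A1, COL3A1 and PECAM1 did. VWF had at most 19.3 counts in any library, and its mean was too low to enter the test. Each leukocyte marker in the table (PTPRC, CD3E, CD14 and LYZ) overlapped between the groups, although their sums did not. The part of any other cell type in the BMPER value was not tested.

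The 250 bases before the upstream start of BMPER in RefSeq (chr7:33904665-33904914, plus strand, GRCh38.p14) are shown because BMPER carried the largest difference. GENCODE 29 starts the gene farther upstream, at 33904308, so by that annotation this window lies inside the gene. Capitals mark GGCGCC, the GC-rich letters known to be bound by SMAD1 and SMAD5, and GTCT or its reverse complement AGAC, the short letters bound by SMAD proteins.
BMPER: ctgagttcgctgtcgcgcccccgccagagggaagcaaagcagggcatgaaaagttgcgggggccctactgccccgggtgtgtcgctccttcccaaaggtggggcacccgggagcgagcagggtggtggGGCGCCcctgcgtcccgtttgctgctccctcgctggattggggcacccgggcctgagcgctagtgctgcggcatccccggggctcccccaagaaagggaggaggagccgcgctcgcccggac
The window held 1 GGCGCC, at 122 bases before the start, and no GTCT on either strand. The 250 bases before the downstream RefSeq start, of which GENCODE 29 places 65 in UTR, held GGCGCC at 123 and 59 bases before it, and GTCT at 106 and 32. Of 35116 RefSeq promoter windows of this length, 16.4% held GGCGCC and 77.5% held GTCT on at least 1 strand, so matches are a description of the sequence and not of binding.

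BMP4, the ligand of the set, was its most abundant transcript. It had 18630, 18370 and 18678 counts in the sgMLL3 libraries, against 20058, 20528 and 22359 in the sgNT libraries. The groups did not overlap, but the means of 18559 ± 166 in sgMLL3 and 20982 ± 1215 in sgNT (SD, n = 3 each) differed by a ratio of 0.885. The log2 fold change was -0.18 (SE 0.076), and -0.0055 (SE 0.048) with the trend removed. Without sgNT replicate 1 it was -0.21 as deposited, where BMP4 passed the limma threshold, and -0.026 with the trend removed. Trend-removed values ran from 14.24 to 14.29 on the log2 scale in sgMLL3 and from 14.23 to 14.31 in sgNT, so the groups overlapped throughout.

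BMP1 is no ligand in spite of its name. It is a metalloprotease that cuts the ends off procollagens and frees BMPs by cutting the antagonist chordin. It had 2444, 2670 and 2951 counts in the sgMLL3 libraries, against 3100, 3249 and 3759 in the sgNT libraries. All sgMLL3 values lay below all sgNT values, and replicate 3 was the highest of each group. BMP1 has the highest GC content of the set, 61.0%. Its log2 fold change was -0.33 (SE 0.097), and -0.11 (SE 0.057) with the trend removed. Annotated transcripts overlap BMP1 on the opposite strand (AC105206.3) and on its own strand (AC105206.1). The strand setting of the counting is not given in the sources used here, so reads from the opposite strand cannot be told apart. Strand would not separate reads of AC105206.1.

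The receptors stood level or slightly higher in sgMLL3 as deposited, and level or slightly lower once the trend was removed. BMPR2, the type II receptor, had 2609, 2570 and 2140 counts in the sgMLL3 libraries, against 2247, 1838 and 1692 in the sgNT libraries. The lowest sgMLL3 library, replicate 3, lay below the highest sgNT library, replicate 1, so the groups overlapped. BMPR1A, a type I receptor, had 2157, 2035 and 1864 counts in the sgMLL3 libraries, against 1799, 1664 and 1236 in the sgNT libraries. These groups did not overlap, and sgNT replicate 3 was the lowest of the 6.

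The log2 fold change of BMPR2 was 0.35 (SE 0.11) as deposited and -0.13 (SE 0.076) with the trend removed. That of BMPR1A was 0.38 (SE 0.12) and then -0.022 (SE 0.089). With all libraries both signs turned with trend removal, and both transcripts are AT-rich, with 37.6% and 40.6% GC. Without sgNT replicate 1, BMPR2 stood at 0.46 as deposited and -0.045 with the trend removed, and BMPR1A at 0.49 and 0.048. BMPR1A also has 2 annotated processed pseudogenes, BMPR1AP1 on chromosome 6 and BMPR1AP2 on chromosome 11, which could share reads with it. ACVR1, the type I receptor also called ALK2, had 1263, 1287 and 1253 counts in the sgMLL3 libraries, against 1045, 1280 and 1232 in the sgNT libraries. The sgMLL3 values lay within the sgNT range apart from replicate 2, and sgNT replicate 1 was the lowest. Its log2 fold change was 0.10 (SE 0.10), and -0.044 (SE 0.093) with the trend removed.

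SMAD5 and SMAD1, which carry the receptor signal to the nucleus, were higher in every sgMLL3 library than in any sgNT library. SMAD5 had 2771, 2852 and 2333 counts in the sgMLL3 libraries, against 1893, 1813 and 1470 in the sgNT libraries. Replicate 3 was the lowest of each group. The means were 2652 ± 279 in sgMLL3 and 1725 ± 224 in sgNT (SD, n = 3 each), a ratio of 1.54. SMAD1 was far less abundant, with 150, 183 and 161 counts in the sgMLL3 libraries, against 94.8, 105 and 94.7 in the sgNT libraries. Its means were 165 ± 16.5 in sgMLL3 and 98.2 ± 6.07 in sgNT, a ratio of 1.68.

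The log2 fold change of SMAD5 was 0.62 (SE 0.11) and 0.17 (SE 0.073) with the trend removed. That of SMAD1 was 0.74 (SE 0.19) and then 0.36 (SE 0.17). The groups still did not overlap with the trend removed. SMAD1 then ran from 6.96 to 7.33 on the log2 scale in sgMLL3, against 6.70 to 6.90 in sgNT, and SMAD5 from 11.08 to 11.21 in sgMLL3, against 10.83 to 11.06 in sgNT. SMAD5 is the most AT-rich transcript of the set (36.9% GC), and SMAD1 has 39.2%. Both genes have an annotated antisense transcript that overlaps their exons, whose reads cannot be told apart without the strand setting. SMAD5 also overlaps the annotated RNAs RF02174 and RF02175 on its own strand, which strand would not separate.

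**Figure D2:**
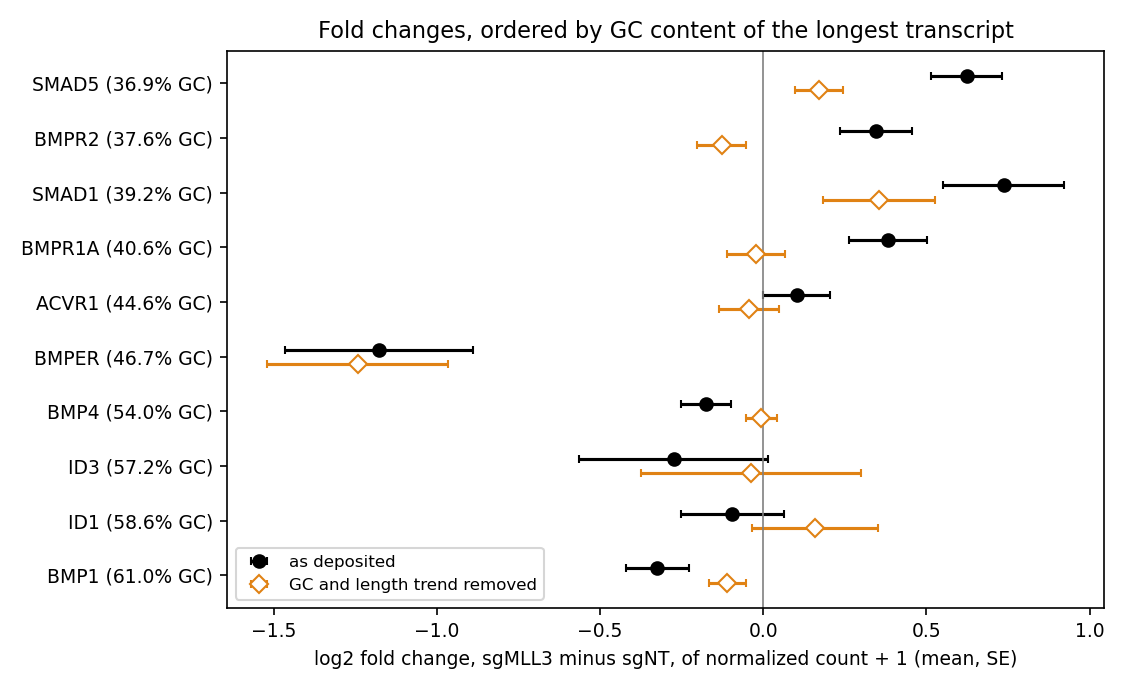
Log2 fold change of sgMLL3 minus sgNT for the 10 genes, ordered from the lowest GC content at the top to the highest at the bottom. Black circles are the values as deposited, open orange diamonds those after trend removal, and bars are the SE from limma. The genes below 45% GC lie right of 0 as deposited, and with the trend removed every gene except BMPER lies between -0.13 and 0.36.

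Across the set, the sign of the difference as deposited split by base composition. The 5 genes with a positive log2 fold change had 36.9% to 44.6% GC, and the 5 with a negative one had 46.7% to 61.0%. This split rests on sgNT replicate 1, since ID1 and ID3, at 58.6% and 57.2% GC, had positive values (0.19 and 0.17) without it. The median GC content of all tested genes was 48.5%. The 9 genes other than BMPER spanned -0.33 to 0.74 as deposited and -0.13 to 0.36 with the trend removed, whereas BMPER lay outside both ranges.

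ID1 and ID3, the target genes, did not separate by genotype, and 1 control library stood far above the rest for both. ID1 had 2752, 2779 and 2423 counts in the sgMLL3 libraries, against 4181, 2345 and 2303 in the sgNT libraries. The sgMLL3 values lay above sgNT replicates 2 and 3 and far below sgNT replicate 1. ID3 had 114, 112 and 112 counts in the sgMLL3 libraries, against 252, 127 and 79.2 in the sgNT libraries. The sgMLL3 libraries were almost level, while the highest sgNT library had 3.18 times the lowest.

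The log2 fold change of ID1 was -0.095 (SE 0.16), and it was 0.19 (SE 0.092) without sgNT replicate 1. After trend removal it was 0.16 (SE 0.19) with that library and 0.46 (SE 0.073) without it, when each sgMLL3 library lay above both remaining sgNT libraries. ID3 stood at -0.27 (SE 0.29) with sgNT replicate 1 and at 0.17 (SE 0.23) without it, and at -0.038 (SE 0.34) and 0.42 (SE 0.23) with the trend removed. The sign of both genes as deposited turned when that single library was left out, and not when any other library was. In the authors' deposited table the log2 fold changes were -0.15 for ID1 and -0.44 for ID3, with standard errors of 0.30 and 0.48.

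Another gene known to be switched on by BMP signalling, ATOH8, which encodes a helix-loop-helix transcription factor, was likewise high in sgNT replicate 1. ATOH8 was named because its values over these libraries were among the 5 most correlated with those of ID1, so the likeness follows from that choice. ATOH8 had 93.0, 91.3 and 86.2 counts in the sgMLL3 libraries, against 186, 77.3 and 83.1 in the sgNT libraries. That library had 1.80 times the mean of the other sgNT libraries for ID1, 2.45 times for ID3 and 2.32 times for ATOH8. All 3 exceeded the highest of the other 5 libraries by at least 1.5-fold, as did 0.65% of all tested genes, a limit chosen after the values were seen. Being simply the highest of the 6 there, by any margin, held for 17.5% of tested genes. The inhibitory SMADs, which are targets as well, were also highest there: SMAD7 by 1.33 times and SMAD6 by 1.07 times. After trend removal SMAD6 was not, at 7.22 on the log2 scale there against 7.31 in sgMLL3 replicate 1. ID2 did not share this, with 138 counts in sgNT replicate 1 within its range of 128 to 181 over the other libraries. JUNB, an AP-1 subunit, was lowest in that library, with 1808 counts against 2362 to 3271 in the other 5. Of the other listed target genes, RUNX2 was highest there by 1.14 times, and ID4, HEY1 and MSX2, all at low counts, were not highest there. The labels give sgNT replicate 1 no treatment or batch of its own, and what sets it apart was not tested.

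The 250 bases before the RefSeq start of ID1 (chr20:31605039-31605288, plus strand, GRCh38.p14) are shown because this BMP target was the most abundant of the genes that were high in 1 library, with capitals as above.
ID1: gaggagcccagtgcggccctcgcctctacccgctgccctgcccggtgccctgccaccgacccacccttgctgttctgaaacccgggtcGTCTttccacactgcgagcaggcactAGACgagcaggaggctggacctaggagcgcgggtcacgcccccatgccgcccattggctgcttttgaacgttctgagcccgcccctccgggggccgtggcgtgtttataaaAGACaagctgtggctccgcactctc
ID1 held GTCT or AGAC at 162, 136 and 25 bases before its start. GENCODE 29, whose starts differ from those of RefSeq, places UTR in 6 bases of this window and 4 of the BMPER window shown. The windows of ID3 and ATOH8 are not printed, because UTR takes 250 and 97 bases of them. Both lie inside their genes as GENCODE 29 places them. ID3 held GTCT or AGAC at 158 and 146 bases before its RefSeq start and ATOH8 held neither, and none of the 3 windows held GGCGCC. The shares of all promoter windows given above apply here too, and the windows do not reach farther enhancers.

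**Figure D3:**
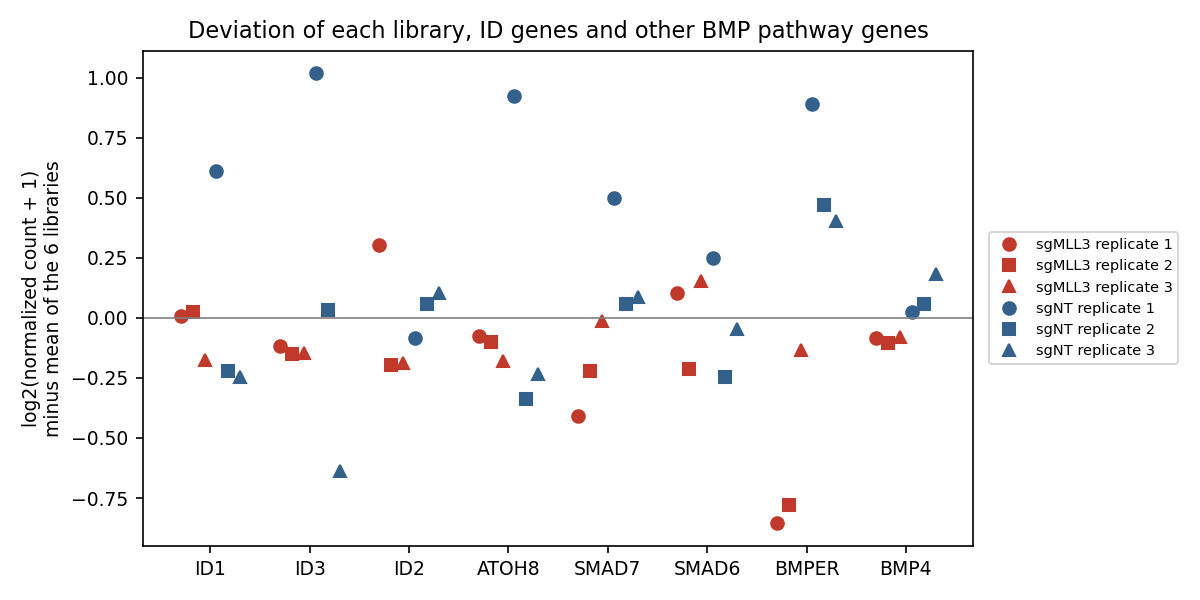
Deviation of each library from the mean of all 6 on the log2(normalized count + 1) scale, with sgMLL3 libraries in red left of the sgNT libraries in blue for each gene. The blue circles, sgNT replicate 1, lie far above the other libraries for ID1, ID3 and ATOH8 and highest for SMAD7, while for BMPER all sgNT libraries lie above all sgMLL3 libraries.

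Per kilobase of the longest annotated transcript, the order of the 10 genes was the same in both groups. BMP4 led with 9681 ± 86.4 normalized counts per kilobase in sgMLL3 and 10945 ± 634 in sgNT. ID1 followed with 2150 ± 161 in sgMLL3 and 2387 ± 870 in sgNT, and then BMP1 with 618 ± 58.3 in sgMLL3 and 774 ± 79.5 in sgNT. Below them came ACVR1 with 416 ± 5.63 in sgMLL3 and 389 ± 40.8 in sgNT, and SMAD5 with 378 ± 39.8 in sgMLL3 and 246 ± 32.0 in sgNT. ACVR1 and SMAD5 were within 1 SD of each other in sgMLL3. BMPR2 (213 ± 22.7 in sgMLL3, 168 ± 25.1 in sgNT) and BMPR1A (179 ± 13.1 in sgMLL3, 139 ± 26.1 in sgNT) overlapped within 1 SD in both groups. ID3 had 90.0 ± 1.06 in sgMLL3 and 122 ± 71.4 in sgNT, where it could not be set apart from BMPR1A or BMPR2. SMAD1 (50.01 ± 5.01 in sgMLL3, 29.8 ± 1.84 in sgNT) and BMPER (7.05 ± 2.12 in sgMLL3, 15.9 ± 3.09 in sgNT) were the least abundant. Each value is a mean and SD over 3 libraries.

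The rest of the pathway was read from 80 further genes listed by role, not by how they moved, of which 58 were in the table and 52 were tested. Among these 52, 11 rose and 6 fell in limma, and 35 did not pass, a share of calls close to the 33.2% of all tested genes (18.9% higher, 14.4% lower). Without sgMLL3 replicate 1 or sgMLL3 replicate 2 the count of 17 dropped to 7 and 9. Their median log2 fold change was 0.090, against -0.017 over all genes tested. Trend removal left 2 that rose and 2 that fell and a median of 0.011, against -0.018, where 4.08% of all genes passed as higher and 5.95% as lower. When any 1 sgMLL3 library was then left out NEO1 alone passed, and without sgNT replicate 1 the count was 11. The direction again went with base composition, since the 11 genes that rose had 35.5% to 49.0% GC and the 6 that fell 53.1% to 61.7%. Of all called genes 56.8% were higher as deposited and 40.7% with the trend removed.

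NEO1 rose the most of these genes. It encodes neogenin, a receptor of the repulsive guidance molecules, which act as BMP co-receptors. NEO1 had 361, 378 and 442 counts in the sgMLL3 libraries, against 164, 200 and 203 in the sgNT libraries. The groups lay far apart, and NEO1 rose by 1.06 on the log2 scale (SE 0.15, limma adjusted p = 0.00011). After trend removal it was 1.05 (SE 0.14, limma adjusted p = 0.0015), and NEO1 passed in all 23 alternative settings. ACVR2A, a type II receptor, rose by 0.60 (SE 0.19, adjusted p = 0.020), and after trend removal had a value of 0.19 (adjusted p = 0.58). Its call as deposited was lost without sgMLL3 replicate 1 (adjusted p = 0.087), without sgMLL3 replicate 2 (0.11) and under quantile normalization (0.051). Of the 8 receptors and co-receptors tested, 2 passed as deposited, where 33.2% of all tested genes did. The most abundant that did not was RGMB, a repulsive guidance molecule, at 0.0064 (SE 0.097), and -0.018 (SE 0.084) after trend removal.

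FST, which encodes the activin and BMP binding protein follistatin, was the other gene that rose in both analyses. It had 1777, 1906 and 1881 counts in the sgMLL3 libraries, against 793, 1237 and 1397 in the sgNT libraries. The sgNT spread came from replicate 1, the lowest, and the groups did not overlap. FST rose by 0.74 on the log2 scale (SE 0.15, limma adjusted p = 0.0014), and by 0.63 (SE 0.17, limma adjusted p = 0.043) after trend removal. That second call was lost when any 1 of the sgMLL3 libraries or sgNT replicate 2 was left out (adjusted p = 0.073 to 0.16). Without sgNT replicate 1 the values were 0.50 as deposited (adjusted p = 0.00014) and 0.36 after trend removal (adjusted p = 0.00056). TWSG1, which encodes the secreted BMP binder twisted gastrulation, rose by 0.50 (SE 0.081, adjusted p = 0.00029), and after trend removal had a value of 0.074 (adjusted p = 0.42). These were the 2 of 11 secreted modulators that passed as deposited, where 33.2% of all tested genes did. CRIM1, a membrane protein with BMP-binding repeats, was the most abundant that did not, at 0.21 (SE 0.083, adjusted p = 0.060), and 0.15 (SE 0.068) after trend removal.

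Of 20 SMADs and intracellular regulators, 6 rose and 5 fell as deposited, where 18.9% of all tested genes passed as higher and 14.4% as lower. Those that rose were ZFYVE16, an endosomal SMAD scaffold (0.60), MAP3K7, the kinase TAK1 (0.48), the ubiquitin ligase SMURF2 (0.41), the antiproliferative protein TOB1 (0.32), XIAP (0.30) and LEMD3, an inner nuclear membrane SMAD antagonist (0.29). Those that fell were the inhibitory SMAD7 (-0.43), the SMAD corepressor SKI (-0.31), the phosphatases CTDSP1 (-0.30) and CTDSP2 (-0.23), and TAB1, the partner of MAP3K7 (-0.29). Their limma adjusted p-values were 0.00073 to 0.038. None of these 11 passed after trend removal, when their log2 fold changes lay between -0.23 and 0.15 and those of SMURF2 and XIAP turned below 0, but without sgNT replicate 1 ZFYVE16 then passed as higher (0.22) and CTDSP2 (-0.13) and XIAP (-0.23) as lower. SMAD7 had 435, 496 and 573 counts in the sgMLL3 libraries, against 819, 601 and 614 in the sgNT libraries, and without sgNT replicate 1 its log2 fold change was -0.29 (adjusted p = 0.075). Its call was also lost without sgMLL3 replicate 1 (adjusted p = 0.14) and without sgMLL3 replicate 2 (adjusted p = 0.076). Only ZFYVE16, MAP3K7 and SMURF2 of the 11 passed whichever single library was left out as deposited. TOB1 lost its call without any library except sgNT replicate 2 (adjusted p = 0.058 to 0.12). XIAP lost it without sgMLL3 replicates 1 and 2 and sgNT replicates 1 and 3, each alone (0.057 to 0.19), and CTDSP2 without sgMLL3 replicates 1 and 2 and sgNT replicates 2 and 3 (0.072 to 0.13). LEMD3 lost it without sgMLL3 replicates 1 and 2 and sgNT replicate 2 (0.14 to 0.17), and TAB1 without sgMLL3 replicates 1 and 2 and sgNT replicate 3 (0.10 to 0.19). CTDSP1 lost it without sgMLL3 replicate 1 or 2 (0.080 and 0.084), and SKI without sgMLL3 replicate 1 or sgNT replicate 3 (0.12 and 0.065). Quantile normalization ended the calls of TOB1, XIAP, LEMD3 and CTDSP2. FKBP1A, which holds type I receptors inactive, was the most abundant that did not pass, at -0.067 (SE 0.078), and -0.0030 (SE 0.061) after trend removal.

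A pair of genes that did not pass as deposited fell once the trend was removed, and they are named here after their values were seen. TGFBR3, the co-receptor betaglycan, had a value of -0.083 (adjusted p = 0.51) as deposited and fell by 0.31 (SE 0.071, limma adjusted p = 0.020) after trend removal. PPM1A, a phosphatase that acts on SMADs, had a value of 0.23 (adjusted p = 0.052) as deposited and fell by 0.23 (SE 0.057, adjusted p = 0.026) after trend removal, so the direction flips between them. The trend-removed calls of TGFBR3 and PPM1A were both lost when any 1 sgMLL3 library was left out. At most 1 of them passed without sgNT replicate 2 or without sgNT replicate 3.

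Of 9 tested ID relatives, E proteins and target genes, TCF12 rose by 0.58 (SE 0.10, limma adjusted p = 0.00060) and TCF3 fell by 0.30 (SE 0.085, adjusted p = 0.012). Both encode E proteins, the partners of ID proteins. They were the 2 of these 9 that passed as deposited, where 33.2% of all tested genes did. Neither passed after trend removal, at 0.22 (adjusted p = 0.065) for TCF12 and -0.087 (adjusted p = 0.44) for TCF3, but without sgNT replicate 1 TCF12 then did (0.27). The TCF3 call as deposited was lost without sgMLL3 replicate 1 (adjusted p = 0.088). JUNB was the most abundant that did not pass, at -0.064 (SE 0.15), and 0.19 (SE 0.15) after trend removal. This JUNB result rests on sgNT replicate 1, without which the ratio of the means was 0.798, against 0.928 with it. With 1 library left out as deposited its log2 fold change reached -0.32, and JUNB passed in 1 of the 23 alternative settings. ID2 had 181, 128 and 128 counts in the sgMLL3 libraries, against 138, 153 and 157 in the sgNT libraries. It did not pass, at -0.053 (SE 0.19), and 0.10 (SE 0.18) after trend removal. Of the 14 listed ligands, 4 were tested and none passed in limma, edgeR or DESeq2, nor did any have an unadjusted p under 0.05 in limma. The most abundant of them was BMP8B, with 280 ± 42.0 counts in sgMLL3 and 294 ± 71.5 in sgNT (SD, n = 3 each), a gene with a close copy in BMP8A that could share its reads. The log2 fold change of BMP8B was -0.054 (SE 0.18), and 0.11 (SE 0.18) after trend removal.

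**Figure D4:**
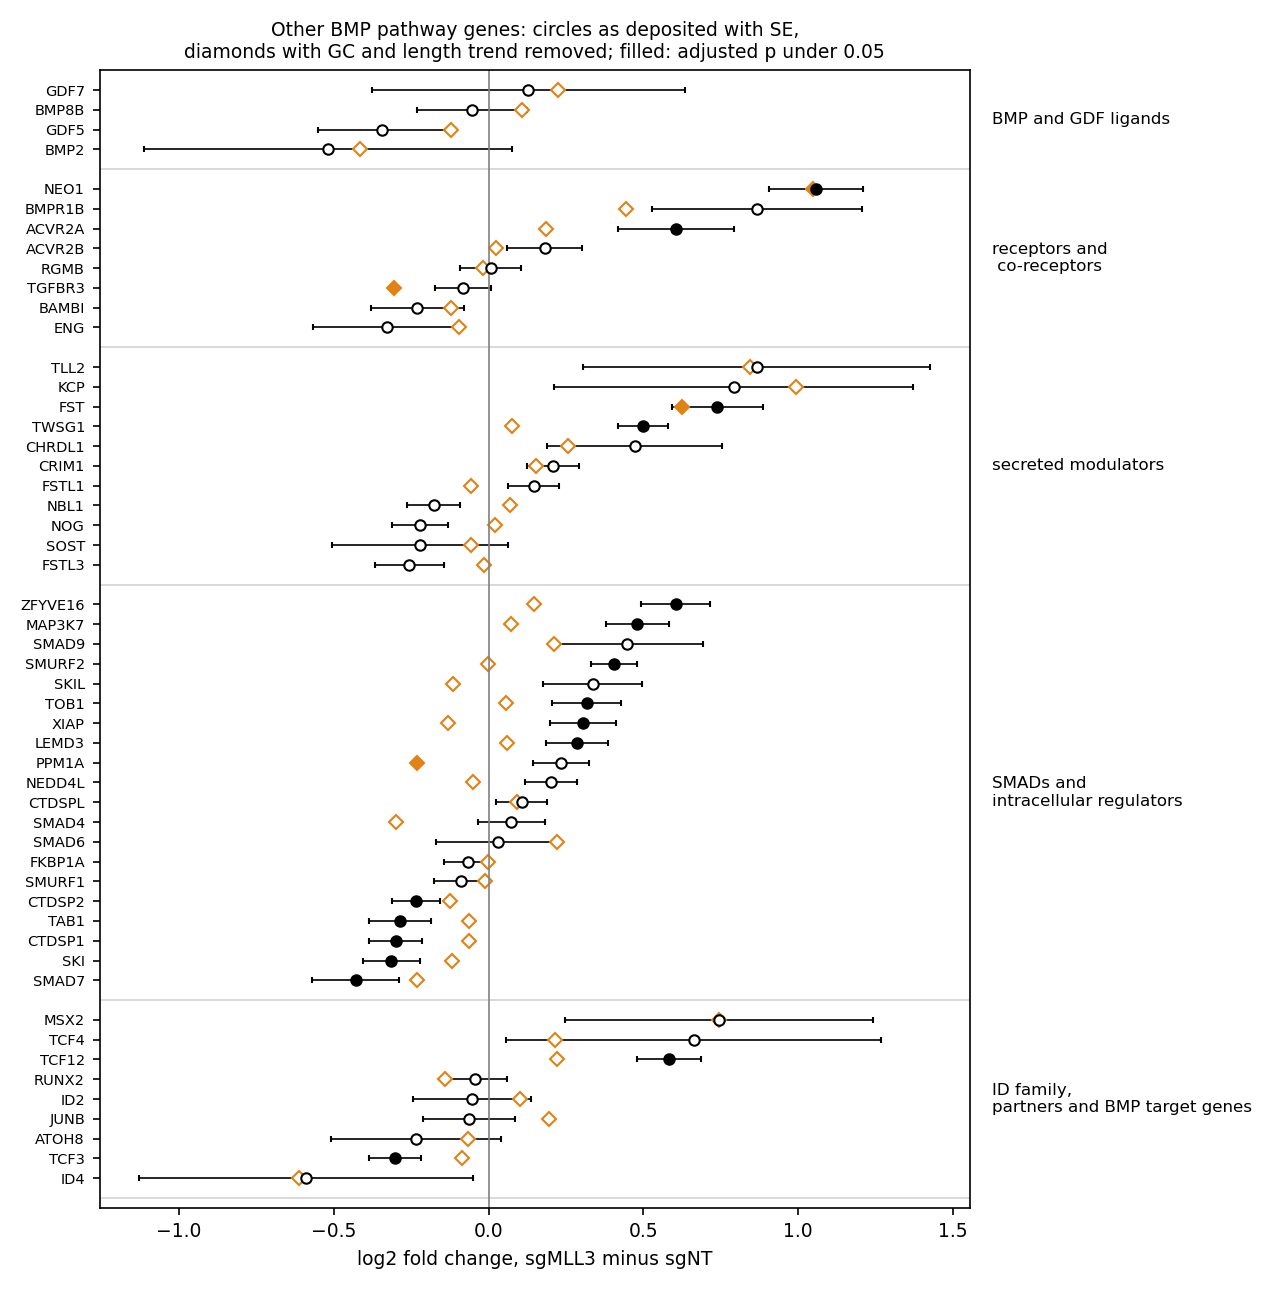
Log2 fold change of sgMLL3 minus sgNT for the 52 tested BMP pathway genes outside the 10, grouped by role. Circles with SE bars are the values as deposited, diamonds those after trend removal, and filled symbols passed an adjusted p of 0.05 in limma. Filled circles outnumber filled diamonds, 17 to 4, and NEO1 and FST are filled in both.

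The genes most like BMPER and ID1 in their pattern over the 6 libraries were sought among genes with a mean of at least 50. Those most like BMPER were TONSL (Pearson's r 0.994), RNF26 (0.993), RMND5B (0.992), TENT5B (0.992) and EVPL (0.992). They differed by less than BMPER, with log2 fold changes of -0.17 to -0.47 as deposited. Their GC content was 52.0% to 65.0%. After trend removal they stood at -0.028 (RNF26) to -0.28 (EVPL), against -1.24 for BMPER. Of these 5, EVPL alone then passed (limma adjusted p = 0.046), and it passed in 18 of the 23 alternative settings. Those most like ID1 were NAAA (0.986), METTL3 (0.978), ATOH8 (0.978), CDK2 (0.977) and H2BC12 (0.977). ATOH8 was the only one of these on the pathway lists. METTL3 alone of them passed after trend removal, as lower (-0.23, limma adjusted p = 0.038), against 0.00099 (adjusted p = 0.99) as deposited. It passed in only 2 of the 23 alternative settings. CDK2 and H2BC12 passed in 1 each, a fit with the trend removed and 1 library left out. The 6 points share the group difference and sgNT replicate 1, so the correlations describe likeness only.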

How the data were processed

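RNA-seq of 6 MDA-MB-231 libraries was analysed from the 1 deposited table. Per the submitters' processing notes, the tools were STAR 2.4.0 with featureCounts 1.5.0, DESeq2 1.30.1 and FastQC, and the build was GRCh38.p13. No annotation release, strand setting or filter is named in the sources used here. Per the file headers, the authors give for each gene a normalized read count per library, a signal made by dividing reads by 1 size factor per library, and the mean of the 6. Per the file headers they also give the log2 fold change, its standard error and the Wald statistic, used as scores, and a p-value and adjusted p-value. All values (100%) lay within 0.01 of a whole multiple of the step of their library, so whole reads were recovered. No gene was at 0 reads in any library of the table, so genes without reads in a library are not analysed here.

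The test was two-sided limma (version 3.58.1, R 4.3.3; trend in the prior variance), 3 libraries against 3. Values were log2(value + 1), which understates the change of low genes. Genes whose mean reached 10 were kept, 14618 in all. P-values were adjusted over all genes tested (Benjamini-Hochberg, threshold 0.05). GC content and length were those of the longest transcript in GENCODE 29 (GRCh38), which held 15681 of the 15706 gene IDs. Trend removal fitted natural splines with 5 terms of each per library. The recovered reads went into edgeR 4.0.16 (quasi-likelihood) and DESeq2 1.42.0 as alternatives. Scripts were checked with simulated counts of known fold changes. The 10 genes, the pathway lists and the tests were chosen with earlier results of these data known. Named were the 10 genes, KMT2C, every other pathway gene past the threshold, the most abundant gene of each list that did not pass, and the 5 genes most correlated with BMPER and with ID1. Promoter sequences are from RefSeq (GRCh38.p14). A promoter of BMP1 was not used here. All 15 pairs of libraries differed beyond counting error.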

Additional observations from a re-analysis of the deposited data

How the results depend on the processing

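The counts of calls moved with the GC and length trend and with single libraries. With the trend removed, 1463 genes, 4 other pathway genes and 1 of the 10 genes passed, against 4859, 17 and 6 as deposited. Leaving out 1 library gave 2143 to 6168 genes, 7 to 19 other pathway genes and 2 to 7 of the 10. Leaving out 1 library with the trend removed, an alternative chosen after seeing the data, gave 379 to 3600, 1 to 11 and 0 to 3. For all genes, the highest count of either kind came without sgNT replicate 1 and the lowest without sgMLL3 replicate 1.

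With the trend removed, the log2 fold change turned to -0.022 for BMPR1A, -0.13 for BMPR2, -0.00060 for SMURF2 and -0.13 for XIAP, with or without the replicate block. When 1 library was also left out, the lowest values were -0.13 for BMPR1A, -0.17 for BMPR2, -0.047 for SMURF2 and -0.23 for XIAP, and without sgNT replicate 1 ACVR2A stood at -0.020, TOB1 at -0.075 and RNF26 at 0.026. Leaving out 1 library as deposited gave at most 0.49, 0.46, 0.43 and 0.40 for those 4 genes, at most 0.73 for ACVR2A and 0.43 for TOB1, and at the lowest -0.30 for RNF26. The cause was not tested.

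Same-numbered libraries did not deviate together in every pair (r = 0.066, 0.0063 and 0.13), so the numbers were not taken as pairs. Nor did every sample correlate best with its own number, since sgMLL3 replicate 2 had r = 0.022 with sgNT replicate 1 and 0.0063 with sgNT replicate 2. A replicate block gave 6265 genes, 25 other pathway genes and 7 of the 10, and with trend removal 1313, 5 and 1. Counts under the other pseudocounts, filters, normalizations and tools stayed within 1.5 times. BMPER stayed lower in all 23 settings (-1.48 to -1.03). The depth limits BMPER most, at 27 to 91 reads per library.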
